A study of Mus musculus with 8 samples.

Results

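Genes of the mitochondrial respiratory chain and of the mitochondrial ribosome were taken from maps of N6-methyladenosine (m6A) of the mouse macrophage line RAW264.7. Members are all genes whose symbol starts with Nduf, Sdh, Uqcr, Cox followed by a digit, Atp5, Atpif, Mrpl or Mrps. RefSeq lists 214 such genes, of which 188 are protein-coding and 26 are pseudogenes. A peak lay on 68 of the 188 protein-coding members in at least 1 library and on 0 of the pseudogenes. Across the whole series, 4293 genes held a peak.

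The study compared m6A between untreated cells (Control) and cells given TBP, TCP or TIP, each at 100 µM for 24 h. The labels do not spell out these 3 abbreviations. An m6A antibody captured the methylated RNA, and gel-selected fragments of 40 to 60 nt were sequenced (MeRIP-seq). The 8 samples are 4 immunoprecipitated (IP) and 4 input libraries, 1 of each per condition, and the 4 IP peak lists are analysed here. No condition has a replicate, so no test between conditions exists. All intervals of shares below are exact Clopper-Pearson 95% intervals that cover counting error only. Intervals of medians, also 95%, are taken from the ranked values and carry no replicate error either.

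The Control list held 4432 peaks, that of TBP 6285, that of TCP 6981 and that of TIP 3034, and the read depth behind them is unknown. Of 12 macrophage markers, 9 carried a peak in some list and 5 carried one in all 4, among them Csf1r, Mpeg1, Fcgr1 and Cd14. None of 14 markers of T and B cells, epithelium, fibroblasts, endothelium, liver or glia carried a peak. More or fewer cells, more or less of a transcript per cell and more or less of the mark on it cannot be told apart in a peak list.

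As background, the respiratory chain passes electrons from NADH and succinate through complexes I to IV to oxygen, and complex V (ATP synthase) uses the resulting proton gradient to make ATP. Most subunits are encoded in the nucleus, translated in the cytosol and imported, while a few are made inside the organelle by a separate ribosome, the mitoribosome, whose proteins also come from nuclear genes. Assembly factors insert cofactors and hold intermediates without staying in the finished complex. Activated macrophages are known to shift between respiration and glycolysis. The m6A mark is written on nuclear transcripts by the METTL3 and METTL14 complex, often near the stop codon and in the 3′ UTR, and reader proteins tie it to the stability and translation of the transcript.

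Peak sequences could be read for 3 member peaks, those that lie wholly inside a RefSeq promoter window (GRCm38.p6). They are shown because Ndufa8 had its peak in Control alone, at the start of its transcript, and because Mrpl43 shares its locus with another gene on the opposite strand. Each is given 5′ to 3′ on the peak's own strand, with capitals marking 1 of 5 forms of the m6A consensus searched on both strands. These are GGACT itself, the form ending in adenine written GGACA, the form ending in cytosine written GGACC, and those with another first or second base, written AGACT for the first of them and GAACT for the other. None of the 5 overlaps another in these peaks.
Ndufa8, Control, chr2:36049296-36049320, minus strand: ttggccagccaaaggGGACTtgaag
Mrpl43, Control, chr19:45005654-45005678, minus strand: gtgagagggataggattggttcctc
Mrpl43, TBP, chr19:45005504-45005528, minus strand: aattctgattcaattggcctccttg
The Ndufa8 peak spans bases 19 to 43 from the start of its transcript and is annotated as 5′ UTR. Its GGACT was read at an offset where 2.54% of 32851 promoter windows hold that sequence, and 11.5% hold any of the 5. Neither Mrpl43 peak holds any of the 5 on either strand. Mrpl43 overlaps Twnk, the gene of the mitochondrial DNA helicase, on the opposite strand. The Control peak printed here runs from base -8 to base 16 around a Twnk start, so its 5′ UTR class describes Twnk as much as Mrpl43, and it overlaps a peak called on the other strand.

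Members carried a peak more often than protein-coding genes at large. In Control, 39 of 188 members had a peak (20.7%, 95% interval 15.2 to 27.2), where the background was 11.1% of 21900 protein-coding genes. TBP had 42 (22.3%, background 14%), TCP had 44 (23.4%, background 15.2%) and TIP had 27 (14.4%, background 8.03%). The order of the 4 libraries followed the lengths of their lists. Over any list the share was 36.2% against 19.2%. The background was not limited to genes expressed in these cells, so the part of expression in this difference was not tested. Cytosolic ribosomal protein genes stood close to members over any list, at 35.2% (interval 25.4 to 45.9). Their share was near that of members for Control (18.7%) and TBP (20.9%), and further below it for TCP (13.2%) and TIP (8.79%). In the order Control, TBP, TCP, TIP, members held 50, 59, 53 and 29 peaks and made up 1.58%, 1.35%, 1.3% and 1.52% of the genes in those lists. Among members the median gene span was 7.11 kb for those with a peak and 7.82 kb for those without. For all protein-coding genes the same medians were 27.6 kb and 15.0 kb.

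**Figure D1:**
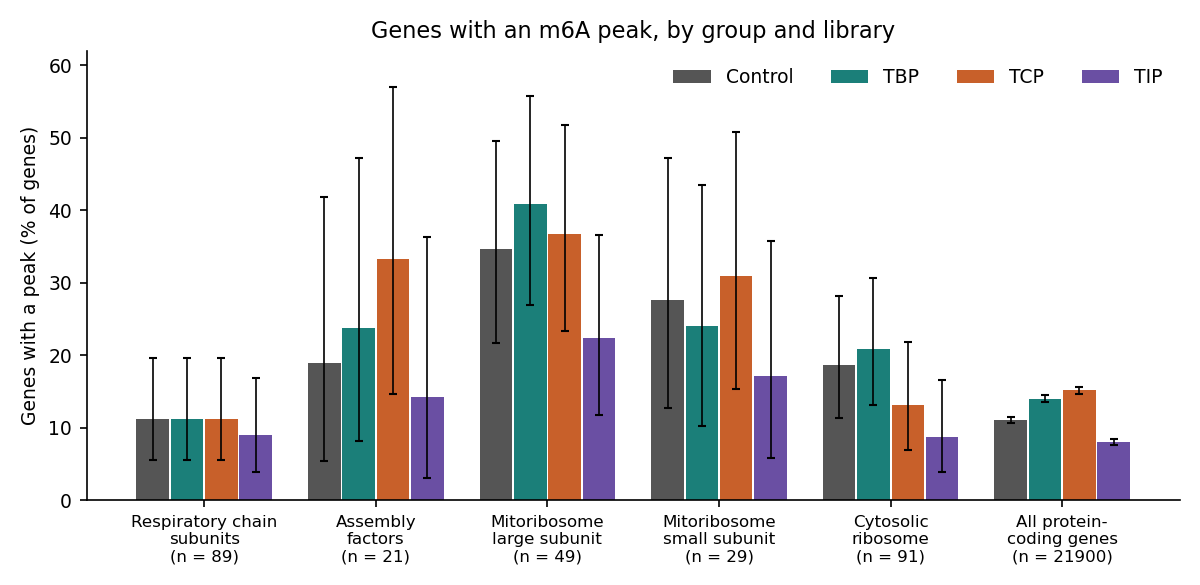
Share of genes with an m6A peak (y axis, percent) in each of the 4 libraries for the member groups, cytosolic ribosomal protein genes and all protein-coding genes (x axis). Bars are shares and lines are exact 95% intervals for counting error. The large mitoribosomal subunit stands between 22.4% and 40.8%, and respiratory chain subunits between 8.99% and 11.2%.

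The mitoribosome stood above the background and the respiratory chain subunits near it. The 78 mitoribosomal genes gave 25 with a peak in Control (32.1%, interval 21.9 to 43.6), 27 in TBP, 27 in TCP and 16 in TIP, and 39 of them (50%) had one in some list. The 89 subunits of the respiratory chain gave 10, 10, 10 and 8. Groups follow the symbol, so these 89 include the inhibitor Atpif1. Their share was 11.2% in Control, TBP and TCP (interval 5.52 to 19.7), where the background was 11.1%, 14% and 15.2%. In TIP it was 8.99% (3.96 to 16.9, background 8.03%), and over any list 24.7% (16.2 to 35.0, background 19.2%). Each of these intervals includes the background. By the lists' nearest-gene column the counts were 19, 20, 21 and 13 for the mitoribosome and 11, 16, 15 and 12 for the subunits, and the 16 in TBP is over 1.5 times the count given above. Assembly factors stood between, with 4, 5, 7 and 3 of 21. Cytosolic ribosomal protein genes, the most similar family outside mitochondria, had a peak for 17, 19, 12 and 8 of 91. No respiratory chain subunit had a peak in all 4 lists, whereas 7 mitoribosomal genes and 3 assembly factors did. That contrast depends on the placement of peaks: with peaks held by a second gene counted, the subunits Ndufb9 and Cox7a2 were in all 4 lists. The Ndufb9 peaks, however, lie outside its RefSeq span. By the lists' nearest-gene column Cox8a was in all 4 as well.

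**Figure D2:**
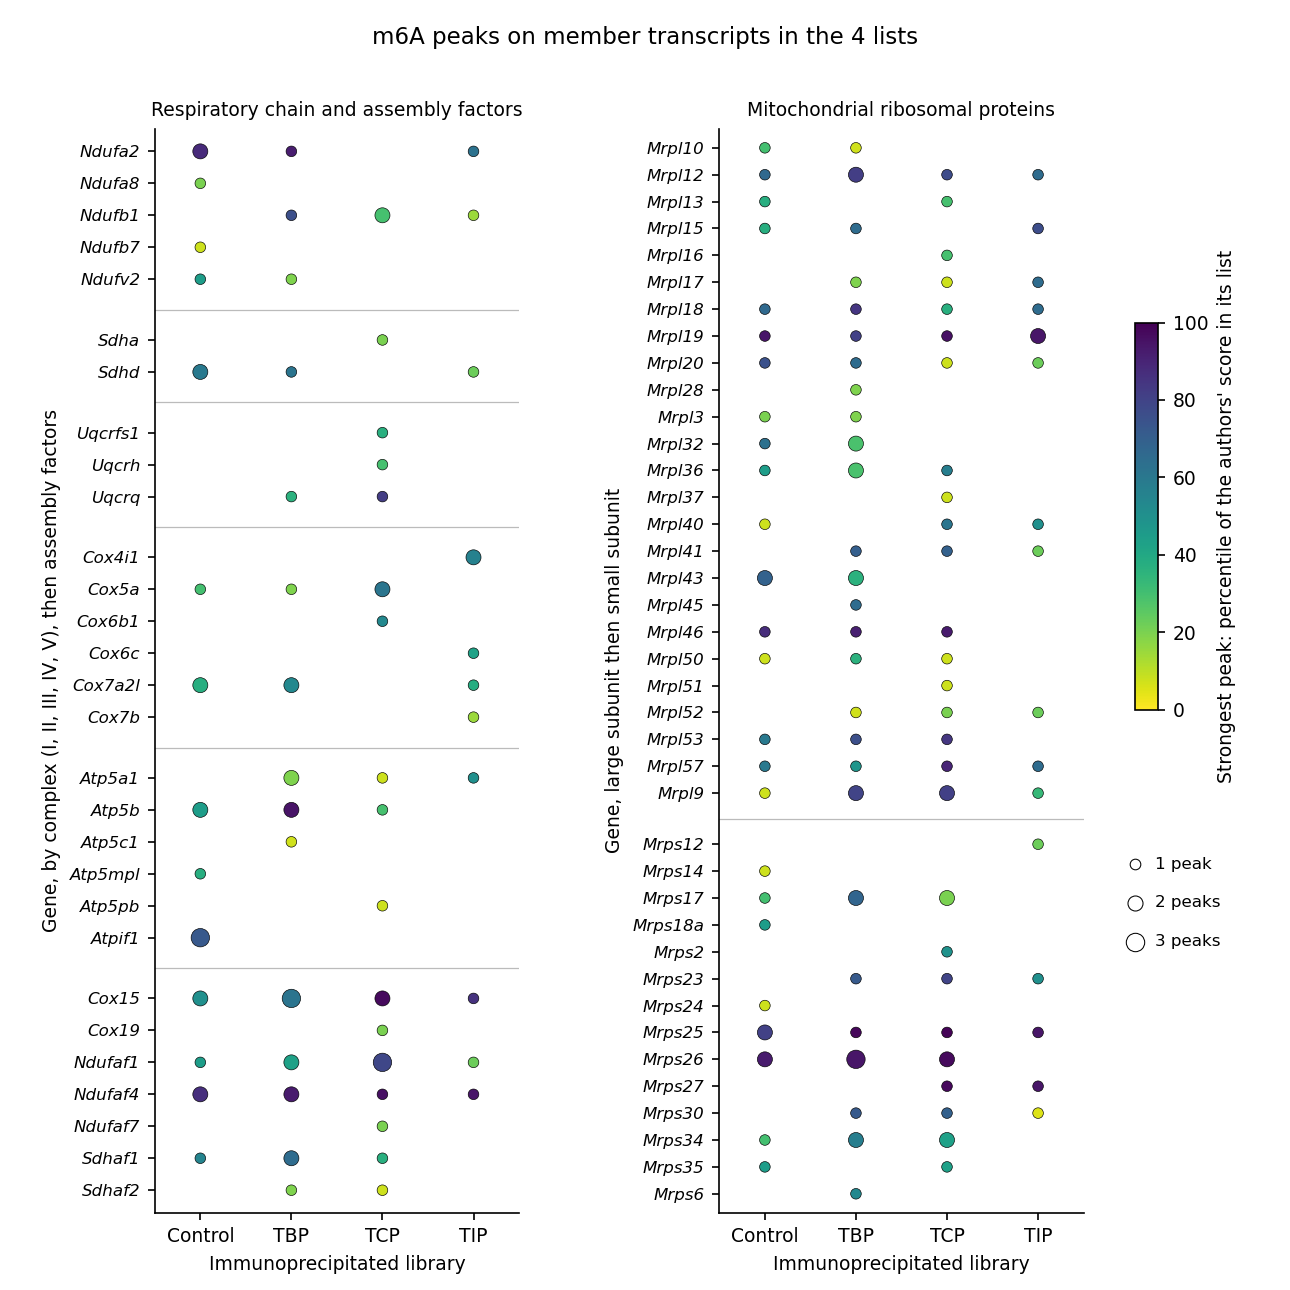
Each dot marks a member (y axis, grouped by complex or ribosomal subunit) with a peak in a library (x axis), sized by the number of peaks and coloured by the percentile of its strongest peak within that list. With peaks held by a second gene left out, the rows with 4 dots are those of 3 assembly factors and 7 mitoribosomal proteins, and most rows with 1 dot are pale, near the bottom of their list.

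Complex I, the NADH dehydrogenase, had a peak on 5 of its 41 genes in some list. Strength is given here as the rank of the authors' score within its own list, with 1 the highest, or as a percentile in which 100 is the highest and ties take their middle. Either places a peak only among those of its own list, so values from different lists stand side by side and measure no change. Ndufb7, an accessory subunit, had 1 peak in Control at chr8:83570971-83570995 in exon 2 of 3, at the lowest score of the list (rank 3772 of 4432), and none with any compound. Ndufa8, whose 5′ UTR peak is printed above, stood at rank 3291 in Control and had none in the other 3 lists. Ndufv2, a core subunit with an iron-sulfur cluster on the electron entry arm, had a peak in exon 6 of 8 in Control (chr17:66083446-66083495, rank 2323) and in TBP (rank 4741), and none in TCP or TIP. Ndufb1 took the opposite form: no peak in Control, then rank 1470 in TBP, 4645 in TCP and 2449 in TIP. Its TBP peak, chr12:101968115-101969496, spans 1382 bp of genome, while the TCP and TIP peaks nearby are 25 bp wide. Ndufa2, chosen after its values were seen, was the strongest complex I gene, at percentile 88.2 in Control, 91.8 in TBP and 62.2 in TIP, and it had no peak in TCP.

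In complex II, which oxidises succinate, Sdhd and Sdha held peaks in different lists. The membrane anchor Sdhd had 2 peaks in Control, 1 in TBP, 1 in TIP and 0 in TCP, and the catalytic subunit Sdha had its single peak in TCP. The TBP peak of Sdhd lay 25 bp from its strongest Control peak and the TIP peak 437.5 bp from it, at the other Control peak. Sdhb and Sdhc had none.

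Complex III, the cytochrome c reductase, had 0 of 8 genes with a peak in Control and in TIP, 1 in TBP and 3 in TCP. Uqcrq, a small subunit, ranked 3788 of 6285 in TBP and 1225 of 6981 in TCP (chr11:53428997-53429096, 3′ UTR), and was absent from Control and TIP. Uqcrfs1, the Rieske iron-sulfur protein, and Uqcrh, the hinge protein, had a peak in TCP only. A count of 0 of 8 allows a share of up to 36.9%, so the absence in Control is loosely bounded.

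Complex IV, cytochrome c oxidase, had a peak on 2 of 18 genes in Control, TBP and TCP and on 4 in TIP. The 3 genes Cox4i1, Cox6c and Cox7b, all nuclear subunits around the catalytic core, carried a peak in TIP alone. Cox4i1 had 2 there, at chr8:120673265-120673289 and chr8:120674008-120674032, both 25 bp wide, with the stronger at percentile 56.3. Cox6c stood at 42.5 and Cox7b at 15.1. Cox6b1 had its only peak in TCP. Cox5a had peaks in Control, TBP and TCP, and Cox7a2l, which joins complexes III and IV into supercomplexes, in Control, TBP and TIP. These 6 genes, like those of complex III, had a peak in at most 3 lists.

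Complex V had a peak on 3 of 18 genes in Control, TBP and TCP and on 1 in TIP. Atpif1, the inhibitor that blocks ATP synthase from running backwards, had 3 peaks in Control and none with any compound. The strongest was chr4:132530705-132530729 at rank 1218 (percentile 72.4), the highest percentile of any member seen in only 1 list, and 1 of the other peaks overlaps a peak called on the opposite strand. Atp5mpl, a small membrane subunit, had 1 Control peak (chr12:111961425-111961449, 3′ UTR, rank 2610) and none elsewhere. The catalytic core behaved otherwise. Atp5a1, the alpha subunit on chromosome 18, had no peak in Control and was found in all 3 compound lists, with 2 peaks in TBP (strongest in the 3′ UTR, percentile 19.5), 1 in TCP (exon 10 of 12, 7.52) and 1 in TIP (exon 10 of 12, 50.3). Atp5b, the beta subunit, described after its values were seen, had a peak in Control, TBP and TCP at percentiles 44.8, 94.9 and 29.3. Its strongest peaks lay in different exons: exon 4 of 10 in Control (chr10:128085071-128085095), exon 9 in TBP (chr10:128088970-128089019) and exon 5 in TCP (chr10:128085550-128085574). Atp5c1, the gamma subunit, had a peak in TBP only and Atp5pb, of the peripheral stalk, in TCP only.

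Of the assembly factors, all 4 with a Control peak kept one in TBP and in TCP, and 3 did in TIP. Ndufaf4, a complex I assembly factor, held 2 peaks each in Control and TBP and 1 each in TCP and TIP, with strongest percentiles of 86.6, 92.9, 95.9 and 94.5. All of them lay in the last of its 3 exons between chr4:24901725 and 24901899, and 75 bases were covered in every list. Cox15, which makes the heme A of cytochrome c oxidase, had 2, 3, 2 and 1 peaks in its last exon and 3′ UTR, at strongest percentiles of 50.3, 61.6, 97.5 and 85.7. Its best TCP peak, chr19:43736654-43736778 (rank 172), lay 125 bp upstream of the best Control peak. Ndufaf1, which chaperones a membrane intermediate of complex I, had 1, 2, 3 and 1 peaks, all in exon 2 of 5, with strongest percentiles of 44.8, 42.6, 78.6 and 22.3. The best TCP peak was chr2:119660119-119660218, 237.5 bp downstream of the Control peak. The TCP list holds 3 separate peaks in this exon.

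Sdhaf1, needed for the iron-sulfur clusters of complex II, was in Control, TBP and TCP. Sdhaf2, which attaches the flavin to Sdha, had no peak in Control or TIP, rank 4741 in TBP (chr19:10502609-10502633, 3′ UTR) and rank 5932 in TCP, the lowest score of that list. Cox19 and Ndufaf7 had a peak in TCP only. None of the remaining 14 assembly factors had a peak.

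The small mitoribosomal subunit held the best-ranked member peaks of 2 lists. Mrps25 had 2 peaks in Control (best rank 823), 1 in TBP (rank 113), 1 in TCP (rank 53 of 6981) and 1 in TIP. Its TCP peak, chr6:92174975-92175099 in the 3′ UTR, stood at the highest percentile, 99.2, of all 191 member peaks. In TIP it shared rank 17 with 301 peaks in all, among them peaks of Mrpl19, Mrps27 and Ndufaf4, so these 4 cannot be ordered. As percentiles Mrps25 stood at 80.6, 98.2, 99.2 and 94.5. Mrps27, whose protein has RNA-binding repeats, had no peak in Control or TBP, but ranked 145 in TCP (chr13:99415095-99415144, 3′ UTR) and 17 in TIP, so it was the strongest member absent from Control. Mrps26 had the reverse gap, with ranks of 315, 346 and 184 in Control, TBP and TCP and no peak in TIP. The same 50 bases, chr2:130565238-130565287 in its 3′ UTR, were called in Control and TBP, and the TCP peak covers them.

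Mrps23 and Mrps30 had a peak in each compound list and none in Control. The Mrps23 peaks overlapped near chr11:88210823-88210922 at percentiles of 72.2 in TBP, 80.0 in TCP and 50.3 in TIP. Those of Mrps30 lay in its last exon (TBP peak chr13:118380531-118380605) at 72.2, 69.5 and 5.45. Mrps14 (chr1:160197015-160197039, rank 3772), Mrps18a (chr17:46128621-46128670, rank 2323) and Mrps24 (chr11:5704533-5704557, rank 3772) had a peak in Control only. Those of Mrps14 and Mrps24 were at the lowest score of that list. Mrps35 had a peak at chr6:147070786-147070835 in Control (percentile 44.8) and an overlapping one in TCP (43.2), and none in TBP or TIP. Mrps17 and Mrps34 were in Control, TBP and TCP, Mrps2 in TCP only, Mrps12 in TIP only and Mrps6 in TBP only. By structure, the products of Mrps18a and Mrps30 sit in the large subunit, although they are grouped here by symbol.

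Of the large subunit, 6 genes had a peak in every list. Mrpl19, the highest of these 6 by percentile in Control, TCP and TIP, had 1 peak in Control, TBP and TCP and 2 in TIP, at ranks of 257, 1170, 298 and 17 for the best of each. The Control peak, chr6:81961851-81962050, was the best-ranked member peak of that list, and 50 bases of it were covered in all 4. Mrpl12, which forms the stalk that recruits translation factors, stood at percentiles of 66.1, 81.8, 77.2 and 65.1. Its strongest peaks all covered chr11:120488559-120488583 in the 3′ UTR, and the best TBP peak was chr11:120488534-120488633. Together with Ndufaf4 these were the only 3 of the 10 genes present everywhere that had a stretch covered in all 4 lists. For each of the other 7, all peaks fell within a stretch of 100 to 600 bp of genome without a base common to every list.

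Mrpl18 stood at percentiles of 66.1 in Control, 84.5 in TBP (chr17:12911499-12911598), 36.8 in TCP and 65.1 in TIP. Mrpl20 stood at 75.1 within the Control list (chr4:155808616-155808715), 65.0 in TBP, 7.52 in TCP and 22.3 in TIP. Mrpl57 was at 59.6, 47.9, 89.5 and 65.1, the highest in TCP (chr14:57826766-57826890). Mrpl9 had peaks at 2 places of its 3′ UTR and was at 7.46 in Control, 79.7 in TBP, 81.0 in TCP (chr3:94448436-94448535) and 33.0 in TIP. No single library gave the highest percentile for all 6 genes.

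**Figure D3:**
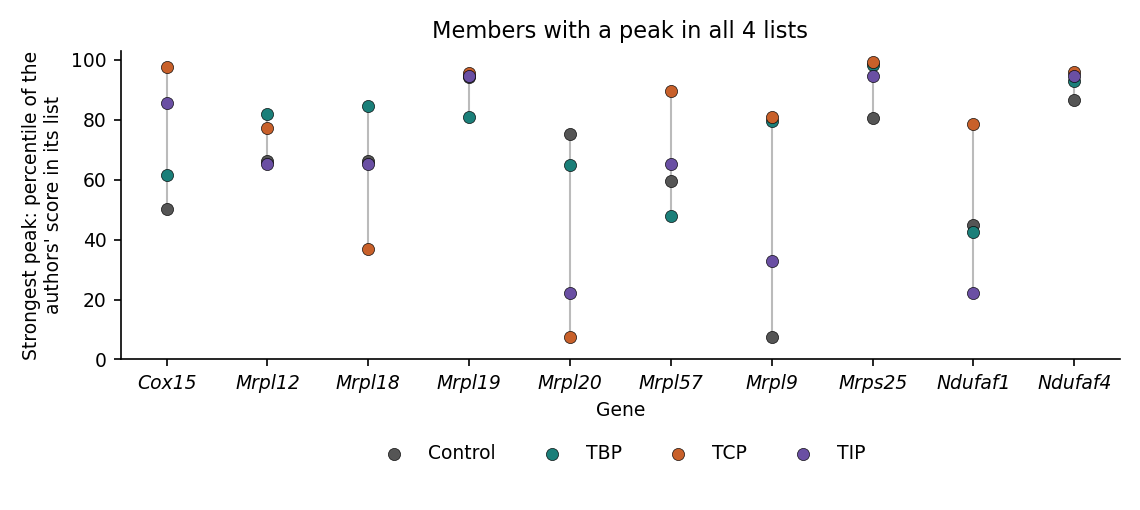
Percentile of the strongest peak within its list (y axis) for the 10 members with a peak in all 4 lists (x axis), 1 dot per library. Mrpl19, Mrps25 and Ndufaf4 stay above 80 in every list, whereas Mrpl20 and Mrpl9 run from under 10 to over 75.

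Of the large-subunit genes with a gap in Control, Mrpl41 stood at percentiles of 70.3 in TBP (chr2:24974317-24974391, last exon), 69.5 in TCP and 22.3 in TIP. Mrpl17 was low in TBP (19.5) and TCP (7.52), in adjacent peaks of 25 bp, and higher in TIP (65.1) at another place of the 3′ UTR, chr7:105809831-105809880. Mrpl52 stood at 7.23, 20.1 and 22.3, and its TIP peak, chr14:54428615-54428639, is in exon 4 where the other 2 are at the end of the gene. Mrpl41 thus held 1 place in all of its lists, and Mrpl17 and Mrpl52 did not.

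Genes with a peak in Control and TBP only were Mrpl3, Mrpl10, Mrpl32 and Mrpl43, besides Ndufv2. Mrpl43 was at percentile 68.9 in Control (chr19:45005454-45005528, 3′ UTR) and 36.2 in TBP. Mrpl32 was at 63.0 (chr13:14610509-14610583) and 28.6, Mrpl10 at 29.7 (chr11:97048406-97048430) and 7.23, and Mrpl3 at 20.3 (chr9:105077231-105077280) and 19.5. Mrpl13 was in Control (percentile 37.4) and TCP (29.3) only, and its Control peak, chr15:55534294-55538641, spans 4348 bp of genome, the widest of all member peaks. Mrpl36, Mrpl46, Mrpl50 and Mrpl53 were in Control, TBP and TCP, Mrpl15 in Control, TBP and TIP, and Mrpl40 in Control, TCP and TIP. Mrpl28 and Mrpl45 had a peak in TBP only, and Mrpl16, Mrpl37 and Mrpl51 in TCP only. Mrpl46 was named after its values were seen: it was at 87.2, 91.3 and 92.8 in its 3 lists, with the same peak, chr7:78775361-78775535, in TBP and TCP, and had none in TIP.

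A gene is called gained where only the compound's list holds a peak on it, and lost where only the Control list does. All 3 comparisons share the Control list. With TBP, 13 of 42 member genes were gained (31.0%, interval 17.6 to 47.1), where the background over all genes was 34.5%, and 10 of 39 were lost (25.6%, 13.0 to 42.1, background 17.3%). With TCP, 21 of 44 were gained (47.7%, 32.5 to 63.3, background 38.9%) and 16 of 39 lost (41.0%, 25.6 to 57.9, background 16.2%). With TIP, 12 of 27 were gained (44.4%, 25.5 to 64.7, background 18.5%) and 24 of 39 lost (61.5%, 44.6 to 76.6, background 41.2%). The member intervals lie above the background for loss with TCP and for gain and loss with TIP, and include it for the rest. These intervals carry no replicate error.

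**Figure D4:**
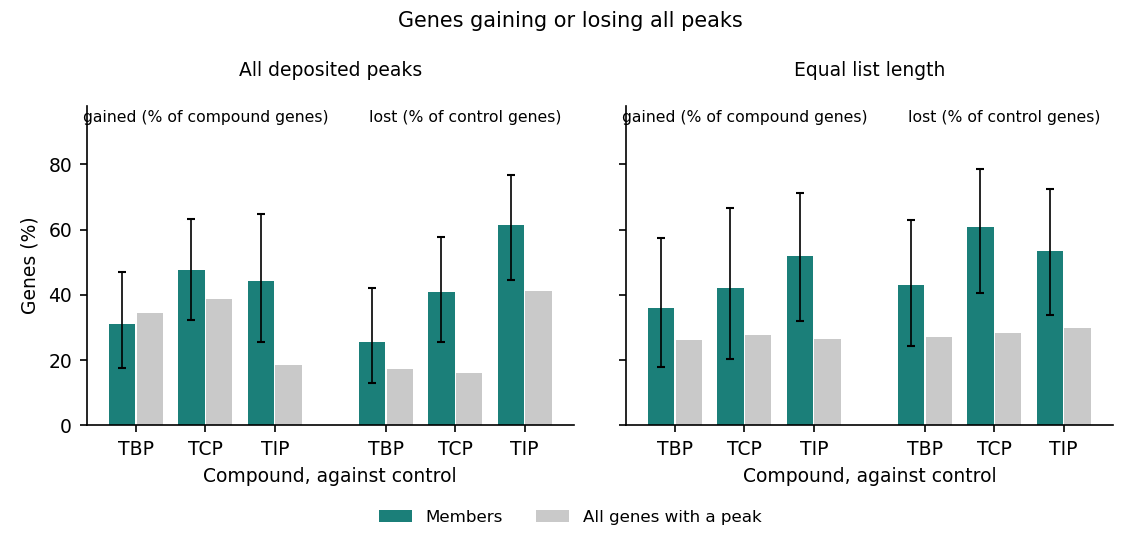
Genes gained (percent of the compound's genes) and lost (percent of Control genes) with each compound, for members and for all genes with a peak, over all deposited peaks (left) and with each list shortened to the length of the shortest (right). Lines are exact 95% intervals for counting error. Members stand above all genes in every pair of bars except gain with TBP over all peaks.

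The lists differ in length, so the same counts were taken with each list shortened to as many best-scored peaks as TIP holds. Peaks tied in score at the cut were kept in order of chromosome and start, so which of them stayed is arbitrary. In Control the cut falls among 353 peaks tied at rank 2938, some of them on members. Members lost were then 12 of 28 with TBP (42.9%, all genes 27.1%), 17 of 28 with TCP (60.7%, all genes 28.3%) and 15 of 28 with TIP (53.6%, all genes 29.9%). Members gained were 9 of 25 with TBP (36.0%, all genes 26.1%), 8 of 19 with TCP (42.1%, all genes 27.7%) and 14 of 27 with TIP (51.9%, all genes 26.4%). At equal length the share of TCP member genes that were gained therefore stood below that of TIP, the reverse of the order over all peaks.

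Members more often rested on 1 peak: 74.4%, 64.3%, 81.8% and 92.6% of member genes in Control, TBP, TCP and TIP, against 61.4%, 56.8%, 55.5% and 66.2% of all genes. The member intervals include the share of all genes in Control (57.9 to 87.0) and TBP (48.0 to 78.4). They lie above it in TCP (67.3 to 91.8) and TIP (75.7 to 99.1). Of the 29 members with 1 Control peak, 9 were lost with TBP (31.0%, all such genes 26%), 11 with TCP (37.9%, all such genes 23.6%) and 20 with TIP (69.0%, all such genes 55.4%). Of the 10 with 2 or more Control peaks, 1 was lost with TBP, 5 with TCP and 4 with TIP, where the shares over all such genes were 3.37%, 4.32% and 18.4%. The 5 lost with TCP were Atpif1, Cox7a2l, Mrpl43, Ndufa2 and Sdhd. Gain was rarer among members with more peaks for TBP (12 of 27 with 1 peak, 1 of 15 with more) and TCP (20 of 36, 1 of 8). With TIP, 11 of the 25 members with 1 peak were gained and 1 of the 2 with more, too few to compare. Over all genes, the share gained with TBP was 48.7% for 1 peak and 15.8% for more. The same shares were 55.4% and 18.5% with TCP, and 25.8% and 4.16% with TIP. The part of peak number in the turnover was not tested.

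Turnover differed in count between the groups. Over all genes with a Control peak, 82.7% kept one with TBP, 83.8% with TCP and 58.8% with TIP. Of 10 respiratory chain subunits with a Control peak, 6 kept one with TBP, 2 with TCP and 3 with TIP. These 10 include the inhibitor Atpif1, which was lost with each compound. With peaks held by a second gene counted, 4 subunits kept one with TCP and 5 with TIP, and without peaks over 500 bp 1 did with TCP. TCP had 10 such subunits as well, so the same number of genes hid 8 gained and 8 lost. Atp5b and Cox5a were the 2 that stayed. Of 25 mitoribosomal genes, 19 kept a peak with TBP, 17 with TCP and 9 with TIP, while 8, 10 and 7 were gained. Whether the groups differ was not tested.

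Sorted by the lists they appear in, 7 members had a peak in Control alone, 4 in TBP alone, 11 in TCP alone and 4 in TIP alone, where all genes numbered 160, 415, 619 and 58. Another 7 had a peak with every compound and none in Control, as did 153 of all genes: Ndufb1, Atp5a1, Mrpl17, Mrpl41, Mrpl52, Mrps23 and Mrps30. Control, TBP and TCP without TIP, the shortest list, gave 10 members and 558 of all genes. All 4 lists gave 10, or 14.7% of the 68, against 29.6% of all genes with a peak. Taken over protein-coding genes with or without a peak, the shares were alike. They were 5.32% of the 188 members (interval 2.58 to 9.56) and 5.76% of all 21900. Of the 68, members in 1 list made up 38.2%, against 29.2% of all genes with a peak. Those in 2 lists made up 14.7%, against 21.2%. In 3 lists there were 22 members, or 32.4%, where 859 of 4293 genes with a peak were in 3. Among genes with a peak, members thus stood above all genes for 1 and 3 lists and below them for 2 and 4.

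Between compounds, TBP and TCP shared 29 member genes, 69.0% of those of TBP and 65.9% of those of TCP, where all genes gave 78.7% and 72.4%. TBP and TIP shared 21, 50% and 77.8% of each, where all genes gave 49.1% and 85.9%. TCP and TIP shared 19, 43.2% and 70.4% of each, where all genes gave 46.9% and 89.3%. Dose and time were equal for the 3 compounds, and with 1 library for each whether these pairs differ was not tested.

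Member peaks lay mostly at the 3′ end of the transcript. In the order Control, TBP, TCP, TIP, the 3′ UTR held 60.0%, 62.7%, 73.6% and 72.4% of them, where all peaks gave 50.9%, 50.7%, 48.5% and 48.8%. The member intervals include the share of all peaks in Control (45.2 to 73.6) and TBP (49.1 to 75.0) and lie above it in TCP (59.7 to 84.7) and TIP (52.8 to 87.3). With the last exon added, the shares were 84.0%, 84.7%, 84.9% and 89.7%, against 67.8%, 67.3%, 64.9% and 65.8%. In all 4 libraries the lower end of the member interval, 70.9%, 73.0%, 72.4% and 72.6%, lay above the share of all peaks. Peaks classed as 5′ UTR were those of Ndufa8 and Mrpl43 in Control and of Sdhaf1 in TBP, and the last 2 overlap a peak on the opposite strand. Exons before the last held, among others, the peaks of Ndufaf1, Ndufv2, Ndufb7, Sdha, Atp5c1 and most of those of Atp5b.

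The median width of member peaks was 50 bp in Control, TCP and TIP and 25 bp in TBP, and that of all peaks was 50 bp in every list. Peaks of 25 bp, the narrowest, made up 48.0%, 52.5%, 41.5% and 44.8% of member peaks, against 36.6%, 35.6%, 37.2% and 34.9% of all. Only the TBP member interval, 39.1 to 65.7, lies above the share of all peaks. By score, the median member peak stood at percentiles of 44.8, 47.9, 43.2 and 50.3 in the 4 lists, close to the 50.3, 47.9, 48.9 and 50.3 of all peaks. Counted per gene, the strongest peak had a median percentile of 44.8, 61.6, 43.2 and 50.3 for members, against 59.6, 61.6, 61.1 and 59.3 for all genes. It was lower for members in 3 lists and equal in TBP. The intervals of the member medians still reach or include the all-gene value in Control (37.4 to 59.6), TCP (29.3 to 69.5) and TIP (22.3 to 65.1). The best 10% of the list by score held 4.0% of member peaks in Control (interval 0.488 to 13.7), where it held 10.2% of all, and 10.2%, 13.2% and 13.8% with TBP, TCP and TIP. The median percentile of the strongest peak was 21.3 for members in 1 list, 36.2 in 2, 51.8 in 3 and 77.9 in 4. These medians pool 26, 20, 66 and 40 values from different lists. Presence and percentile come from the same peak calls, so this order describes those calls and tests nothing.

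**Figure D5:**
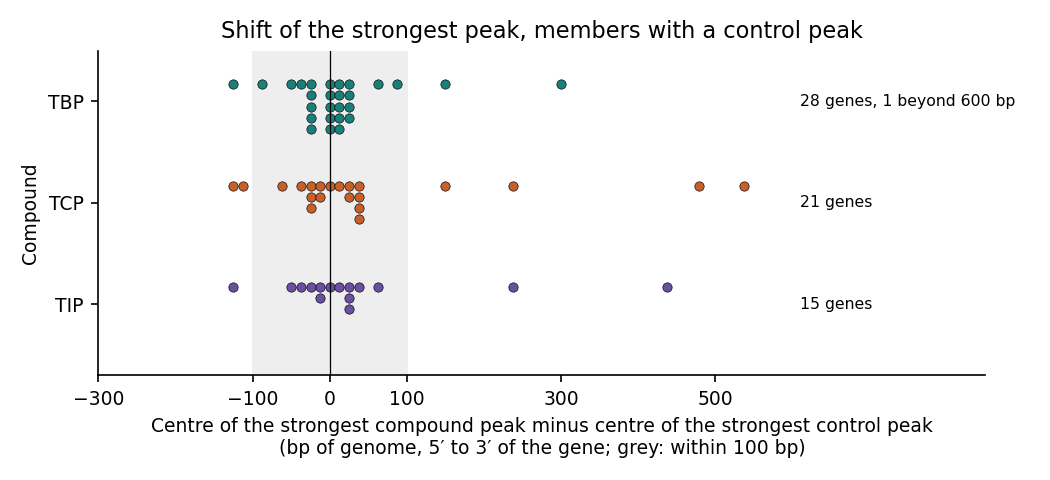
Distance in bp of genome (x axis, positive towards the 3′ end of the gene) from the centre of a gene's strongest Control peak to that of its strongest peak with each compound (y axis), 1 dot per member with a peak of at most 500 bp in both lists, in the direction of the peak's strand. Most dots fall in the grey band within 100 bp of 0, which holds 24 of 28 genes for TBP, 15 of 21 for TCP and 12 of 15 for TIP.

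Where a member had a peak in Control and with a compound, the strongest peaks were usually close. Without peaks spanning over 500 bp, they lay within 100 bp for 24 of 28 genes with TBP (85.7%, interval 67.3 to 96.0), 15 of 21 with TCP (71.4%, 47.8 to 88.7) and 12 of 15 with TIP (80.0%, 51.9 to 95.7). All genes gave 71.4%, 69.5% and 69.6%. With peaks of every width, the counts were 24 of 29 with TBP (82.8%), 15 of 23 with TCP (65.2%) and 12 of 15 with TIP, against 70.4%, 68.1% and 68.7% of all genes. The genes added were Cox5a and Mrpl13, whose Control peaks are wide. Atp5b in TBP then lay 3911.5 bp of genome away, and Sdhd in TIP 437.5 bp. In TCP, the distance was -2599 bp for Mrpl13, 611.5 bp for Cox5a and 537.5 bp for Mrpl9, with positive values towards the 3′ end. By overlap of at least 1 bp, 39.0% of TBP member peaks met a Control peak (background 40%), 30.2% of TCP member peaks (background 35.4%) and 41.4% of TIP member peaks (background 51.8%). The member intervals, 26.5 to 52.6, 18.3 to 44.3 and 23.5 to 61.1, include the background in each case. Taken from the Control side, 44.0% of member peaks met a TBP peak (interval 30 to 58.7), 34% a TCP peak (21.2 to 48.8) and 24.0% a TIP peak (13.1 to 38.2), against 57.3%, 55.7% and 35.3% of all Control peaks. The TCP interval lies below the share of all peaks.

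At 3 loci the gene that holds a peak is ambiguous, and those peaks are left out above. Mrps6 peaks at chr16:92076865-92077089 and chr16:92079190-92079264 in Control, and others near them with every compound, lie inside both Mrps6 and Slc5a3, a myo-inositol transporter gene of the same strand. Peaks attributed to Cox7a2 on chromosome 9 lie inside Tmem30a as well. Those attributed to Ndufb9 on chromosome 15 lie inside Rnf139 and outside the RefSeq span of Ndufb9, chr15:58933801-58939516. Their tie to Ndufb9 comes from the lists' nearest-gene column alone. Each of the 3 members would have a peak in all 4 lists if these were counted, which would bring 10 such members to 13. In addition, 3, 3, 2 and 0 member peaks overlap a peak on the opposite strand, among them peaks of Mrps34, whose strand the sources used here do not give and whose paired peaks were counted once.

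Other genes of the pathway, outside the symbol rule, were also counted. Of 29 assembly factors and electron carriers, 5, 7, 6 and 3 had a peak, in the order Control, TBP, TCP, TIP. The background shares of protein-coding genes, in the same order, were 11.1%, 14%, 15.2% and 8.03%. Whether the short gene lists counted here depart from that background was not tested. Coa3 and Coa5, factors of cytochrome c oxidase, were in all 4 lists, and the cytochrome c gene Cycs and its complex III partner Cyc1 in none. Of 26 genes of mitochondrial gene expression, 5, 10, 5 and 2 had a peak, and 1 of them, the elongation factor gene Gfm2, was in all 4. Tfam, which packages and transcribes mitochondrial DNA, had 2 peaks in Control, 1 each in TBP and TCP and 0 in TIP, with best ranks of 1448, 495 and 298. Of 8 nuclear regulators of these genes, 4, 5, 6 and 2 had a peak. Gabpa and Yy1, transcription factors that bind promoters of respiratory genes, were in all 4, with best ranks of 72 and 327 in Control. Ppargc1b, a coactivator of mitochondrial biogenesis, had 2 peaks in TBP and 1 in TCP and none in Control or TIP, and Ppargc1a had none in any list. No peak was listed on the mitochondrial chromosome. The subunits encoded there have symbols outside the rule and could not be members in any case.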

How the data were processed

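The authors deposited 1 peak list per immunoprecipitated library, with position, strand, annotation class, nearest gene, width in bp and 1 score per peak. The score of the deposited lists has no stated scale, so it was used only as a rank or percentile within a list. Per the submitters' processing notes, the tools included HISAT2 2.1.0, HOMER 4.11 and ChIPseeker 1.26, with no roles given, on the mouse builds mm10 and GRCm38. Which program called the peaks, at what threshold, and whether inputs entered the call is not given in the sources used here. The 4 input libraries are not analysed here.

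The nearest-gene column names another gene for 27.7% of the 191 member peaks. Each peak was therefore assigned to the same-strand gene that holds it. The lists' exon annotation gave that gene for 45.0% of 20732 peaks, else the nearest gene where the peak lies inside it (37.6%), else a single RefSeq gene span of GRCm38.p6 (15.7%). Peaks held by another protein-coding gene of the same strand as well (104) were left out, and 97.8% of peaks were placed. Strand was known for 170 of the 214 members. Overlaps were found with bedtools 2.31.1 (at least 1 bp, same strand), and shares have exact Clopper-Pearson 95% intervals from scipy 1.17.1. The overlap step and the placement by gene span were tested on simulated data with separate genes of known strand. Placement by exon annotation or by nearest gene was not tested in this way.

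The members and gene lists were chosen with earlier results of these data known. Values in every list are given for members in all 4 lists, gained or lost with 2 or more compounds, holding the best-ranked member peak of a list or holding 3 or more peaks in 1 list. All others are named with their lists. Alternatives covered the host gene, the score threshold, list length, wide peaks, the overlap rule and the member rule. Another 2, on peaks held by 2 genes and on peaks paired across strands, and the distances over peaks of every width were added after seeing the data.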

Additional observations from a re-analysis of the deposited data

How the results depend on the processing

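Presence, turnover, position, width and rank of the members as a whole were recomputed under each alternative, which gave 208 values: 177 stayed within 1.5 times the count or within the interval of the main value, and 31 moved. No paired analysis was possible because each condition has 1 library, and for the same reason no replicate could be left out. When only peaks scoring at least their list's median were used, 17, 26, 21 and 15 member genes and 21, 31, 24 and 15 member peaks were left in Control, TBP, TCP and TIP. The 3′ UTR share in Control was then 81.0%, and the median width was 75.0 bp in Control and 87.5 bp in TCP. Members in all lists numbered 6, those lost with TBP 3, with TCP 8 and with TIP 9, and those gained with TCP 12 and with TIP 7. With equal list length, TBP had 25 genes and 29 peaks of median width 75.0 bp, and TCP had 19 genes and 21 peaks of median width 100.0 bp. Members in all lists then numbered 5, those gained with TCP 8 and those lost with TIP 15, and 47.6% of TCP member peaks overlapped Control. Both settings use fewer peaks. Without genes taken from a RefSeq span, 6 members were in all lists. A reciprocal overlap of 50% took the TIP share to 17.2%, and counting peaks of the same gene within 100 bp as shared took TBP to 62.7% and TCP to 47.2%. The nearest-gene column moved no count by over 1.5 times, but of its 12 members in all lists 6 were among the 10 found here. Leaving out assembly factors and Atpif1, peaks over 500 bp or peaks paired across strands, or counting peaks with 2 holding genes, moved none of these. Counts by group and the other descriptions were recomputed too, an addition made after seeing the data. Of 84 group counts per list 16 moved, and of 63 counts of Control genes kept by a group 18 did. Of 21 group counts over all lists 5 moved: with respiratory chain subunits at 0, counting peaks with 2 holding genes gave 2 and the nearest-gene column 3. The number of peaks called limits all counts, and a gene missing from a list may hold a peak under the authors' threshold.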
